A study of Homo sapiens with 14 samples.

Results

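The guides described here were those counted in the dim quartile of sublibrary H4, the bottom-quartile library of 1 of 7 pools of a human CRISPR interference (CRISPRi) screen. Every guide listed in that library was taken, 12295 of the 103711 guides counted in the 7 dim-quartile libraries. They were 12045 guides against 2219 genes and 250 non-targeting guides, which match no human gene start and serve as the neutral reference. A target was the set of guides with one gene symbol and one start label, and there were 2410 targets, of which 2405 had 5 guides and 5 had 4.

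The cells were HEK293 FLP-In, a human embryonic kidney line, carrying SSF-DOR-APEX2, that is, the delta opioid receptor fused to the peroxidase APEX2. They also carried dCas9-KRAB-BFP, a catalytically dead Cas9 joined to a repressor domain, and came from 1 clone sorted on its blue fluorescence. The hCRISPRi-v2-top5 library was delivered at a multiplicity of infection of about 0.2, and puromycin at 0.75 µg/ml was given for 3 days from day 2. Growth medium held 4.5 g/l glucose for every library. After 8 days of growth all cells received 10 µM DADLE, an opioid peptide agonist, for 90 minutes, so no unstimulated cells were counted. APEX2 then converted Amplex UltraRed (100 µM, with 50 µM hydrogen peroxide, 1 minute) to a fluorescent product, and the dimmest and brightest quartiles were sorted. Genomic DNA of each was amplified in 27 PCR cycles. The H4 bright-quartile table used here listed 35 guides with 70718 counts in all, so no ratio of bright to dim was formed and only abundance in the dim quartile is given. Guide counts carry no measure of expression, and neither the cell line nor the strength of repression was checked against markers.

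In CRISPRi the guide brings dCas9-KRAB to a gene's transcription start, where the KRAB domain lowers transcription without cutting the DNA. When the repressed gene is needed for growth, cells with its guides are outgrown in the pool, and those guides become rare. COPI is the coat that forms vesicles returning cargo from the Golgi to the endoplasmic reticulum, and its subunits are recruited together by ARF GTPases. Nuclear pores are assembled from scaffold subcomplexes, chiefly the Y complex and the inner ring, and carry import and export receptors across the nuclear envelope. Both machines are needed by dividing cells. Ribosomes of mitochondria make core subunits of the respiratory chain.

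The stretches before the starts of the COPI subunits and the pore scaffold genes that were lowest in this library are shown first. They are the 250 bases before the RefSeq start (GRCh38.p14), written 5′ to 3′ on the strand of the gene, and the genes were chosen after their values were seen. Capitals mark matches of 4 short motifs searched on both strands, some of which overlap. The GC box was searched as GGGCGG. The CCAAT box was searched under the letters of its name. The core of the cAMP response element was searched as TGACGT. The core bound by ETS factors was searched as CCGGAAG. The regions are:
COPA, chr1:160343251-160343500, minus strand: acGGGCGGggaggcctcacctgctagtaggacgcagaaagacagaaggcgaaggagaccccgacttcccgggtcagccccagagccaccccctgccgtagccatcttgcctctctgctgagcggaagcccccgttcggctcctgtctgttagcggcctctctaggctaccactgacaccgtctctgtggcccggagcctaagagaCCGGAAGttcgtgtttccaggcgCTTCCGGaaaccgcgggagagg
COPB1, chr11:14499812-14500061, minus strand: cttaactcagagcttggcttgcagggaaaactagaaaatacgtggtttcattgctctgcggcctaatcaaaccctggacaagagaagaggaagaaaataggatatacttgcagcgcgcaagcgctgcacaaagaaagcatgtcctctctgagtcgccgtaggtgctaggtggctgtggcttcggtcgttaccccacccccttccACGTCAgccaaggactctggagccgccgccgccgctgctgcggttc
COPB2, chr3:139389681-139389930, minus strand: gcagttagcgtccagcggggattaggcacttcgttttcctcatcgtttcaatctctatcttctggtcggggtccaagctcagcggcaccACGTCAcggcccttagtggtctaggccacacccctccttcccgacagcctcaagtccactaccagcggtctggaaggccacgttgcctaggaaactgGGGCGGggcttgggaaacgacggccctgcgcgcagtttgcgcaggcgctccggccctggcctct
COPE, chr19:18919388-18919637, minus strand: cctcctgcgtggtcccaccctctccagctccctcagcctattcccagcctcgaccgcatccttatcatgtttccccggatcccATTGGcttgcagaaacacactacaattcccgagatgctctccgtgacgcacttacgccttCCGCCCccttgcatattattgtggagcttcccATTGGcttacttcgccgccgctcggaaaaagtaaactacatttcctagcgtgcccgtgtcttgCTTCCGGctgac
COPZ1, chr12:54324881-54325130, plus strand: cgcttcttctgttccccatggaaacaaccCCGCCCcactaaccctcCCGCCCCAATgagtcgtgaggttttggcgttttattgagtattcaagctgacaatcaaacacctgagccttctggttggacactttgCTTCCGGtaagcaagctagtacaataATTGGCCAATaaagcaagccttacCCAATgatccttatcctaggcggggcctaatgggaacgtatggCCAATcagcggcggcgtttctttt
NUP93, chr16:56729879-56730128, plus strand: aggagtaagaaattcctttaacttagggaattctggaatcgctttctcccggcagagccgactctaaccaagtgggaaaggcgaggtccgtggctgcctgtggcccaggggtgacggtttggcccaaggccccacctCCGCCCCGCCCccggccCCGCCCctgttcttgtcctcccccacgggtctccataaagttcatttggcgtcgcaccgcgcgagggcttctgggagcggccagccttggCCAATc
NUP160, chr11:47848351-47848600, minus strand: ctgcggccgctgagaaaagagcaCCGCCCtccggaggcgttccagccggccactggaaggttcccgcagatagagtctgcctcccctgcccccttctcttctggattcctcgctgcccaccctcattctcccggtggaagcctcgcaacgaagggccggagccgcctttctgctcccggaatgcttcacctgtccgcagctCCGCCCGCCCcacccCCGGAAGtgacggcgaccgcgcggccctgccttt
NUP205, chr7:135557667-135557916, plus strand: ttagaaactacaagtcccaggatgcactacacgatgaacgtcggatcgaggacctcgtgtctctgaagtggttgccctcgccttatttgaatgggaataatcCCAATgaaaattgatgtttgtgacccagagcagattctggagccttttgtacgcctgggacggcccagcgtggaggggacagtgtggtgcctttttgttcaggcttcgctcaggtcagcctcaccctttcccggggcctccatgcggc
The GC box was present in 6 of these 8 stretches, against 42.6% of all 35116 promoter windows, each searched over its 250 upstream bases. It was present in 61.2% of the 1667 windows whose symbols matched H4 genes. Repeated symbols were dropped from the H4 set but not from the full set, so these shares are on unlike units. The stretches before COPB1 and NUP205 lacked the GC box. TGACGT was present before COPB1 and COPB2, against 7.10% of all windows and 8.46% of those of H4 genes. CCGGAAG was present before COPA, COPE, COPZ1 and NUP160, against 8.52% of all windows and 16.1% of those of H4 genes. CCAAT was present before COPE, COPZ1, NUP93 and NUP205, against 32.0% of all windows and 33.8% of those of H4 genes. Sites followed by NGG, the motif that Cas9 needs beside its target, numbered from 34 before COPB1 to 66 before NUP93 on the 2 strands together, with a median of 48 over all windows and 55 over those of H4 genes. A motif match is only a match of letters. The guides' own sequences were not used here, since guides are named by symbol, strand and position. Where the counted guides lie relative to these stretches was not mapped, as the build of their positions was not given.

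The library held 16805160 counts, fewer than any of the other 6 dim libraries (18054418 to 29113624). A guide had a median of 1313 counts, and the counts ran from 1 to 5266. Each value below is log2 of a guide's share of the library, with 1 count added, minus the median of the same quantity over the non-targeting guides, which lay at 1363.5 counts. A value of -1 thus means about 2-fold fewer counts than the median non-targeting guide. With 1 library there were no replicates and no test was made: the SD given after a target's mean is the spread of its guides, which are not replicates of a condition. No count from before growth was used, so unequal starting abundance, loss during growth and the sort itself cannot be told apart.

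The non-targeting guides spread with an SD of 0.71, from -2.85 to 1.11, where counting error alone would give 0.04. Of these, 28 of 250 (11.2%) lay at or below -1, as did 1435 of 12045 targeting guides (11.9%). A single low guide was therefore about as frequent without a target as with one. Over targets, the share of the guides' variance that lay between targets was small (intraclass correlation 0.05), and target means had a median of -0.13 and an SD of 0.39. In the other dim libraries the non-targeting SD ran from 0.71 in H3 to 1.50 in H7.

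A mean at or below -1 was found for 66 of 2410 targets (2.74%), called depleted here, and a mean at or above 1 for 5 (0.207%). All guides lay below 0 in 33 of the 66 (50.0%), against 3.97% of the other targets. The 66 were picked on the means of these same values, so a higher share was fixed in advance. A guide with under 50 counts was among the guides of 12 of the 66. The depletion rested on 1 guide past -1 in 5 targets, on 2 in 27, on 3 in 25, on 4 in 6 and on every guide in 3. Just inside the threshold was MRPL44, a protein of the large mitochondrial ribosomal subunit, at -1.004, and just outside was IFT74 at its P1 start, an intraflagellar transport protein, at -0.99. The 3 targets with every guide past -1 were NUP160, NUP93 and CPNE1. Those with 4 guides past it were COPZ1 and COPB2 of the COPI coat, the selenocysteine elongation factor EEFSEC, the complex I assembly factor NDUFAF6, and ABHD8 and CREB3L3.

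COPI held the largest count of depleted genes among the 40 gene lists with members in H4. Of the 14 genes of the coat and its ARF machinery, 5 were at or below -1 (35.7%), against 61 of 2219 genes taken at their primary start (2.75%). The list's median was -0.39, and that of all genes -0.14. All 5 were subunits of the coat itself. The 5 COPB1 guides (β-COP) had 46, 268, 295, 909 and 1203 counts, a mean of -2.03 ± 1.85 (SD, n = 5 guides). One guide lay far below the rest, and all were under the non-targeting median. COPB2 (β′-COP) had 280, 338, 366, 425 and 1203 counts, a mean of -1.61 ± 0.83 (SD, n = 5 guides), and only its highest guide came within 2-fold of that median. COPA (α-COP) had 321, 384, 450, 1299 and 1333 counts (-1.12 ± 0.99, SD, n = 5 guides), so its guides fell into 3 low and 2 that were near the reference.

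COPZ1 (ζ-COP) was targeted at a pair of start labels. At P1 its guides had 229, 319, 411, 568 and 775 counts and a mean of -1.69 ± 0.69 (SD, n = 5 guides), all below the reference. At P2 the mean was -0.09 ± 0.40 (SD, n = 5 guides), so the guides of the second label were not low. COPE (ε-COP) had 177, 199, 1031, 1530 and 1725 counts (-1.12 ± 1.61, SD, n = 5 guides). Its mean came from 2 guides, and it is named because the whole count is listed. COPE and COPA also lay near starts of other genes, DDX49 at 297 bases and NCSTN at 142 bases between the nearest guides. Those neighbours had dim-quartile means of -0.15 and -0.26 in H3.

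The other coat genes in H4 did not pass the threshold. The γ-COP paralogs COPG1 (-0.27 ± 0.80, SD, n = 5 guides) and COPG2 (-0.07 ± 0.36, SD, n = 5 guides) and the ζ-COP paralog COPZ2 (-0.10 ± 0.73, SD, n = 5 guides) were all close to the reference. Among regulators, ARFGAP1, which triggers GTP hydrolysis on ARF, was at -0.55, ARF5 at -0.44, and GBF1, the exchange factor that loads ARF with GTP at the Golgi, at 0.12. TMED2, a p24 cargo receptor of COPI vesicles, was the highest of the list at 0.51. The δ-COP gene ARCN1 was in H3, where its mean was -0.89 in the dim and -0.40 in the bright quartile.

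Nuclear pore and transport genes gave 4 of 32 at or below -1 (12.5%), with a median of -0.42. NUP160, a scaffold protein of the Y complex, had 76, 278, 341, 475 and 677 counts, a mean of -2.19 ± 1.20 (SD, n = 5 guides). NUP93, which anchors the inner ring, had 244, 285, 304, 324 and 423 counts, a mean of -2.13 ± 0.29 (SD, n = 5 guides). Its 5 guides lay close together, and the highest of them was still over 3-fold under the non-targeting median. NUP205, a large inner ring scaffold, had 257, 369, 645, 1231 and 1815 counts (-1.02 ± 1.17, SD, n = 5 guides), so 1 guide exceeded the reference. TNPO3, the import receptor for SR splicing factors, had 393, 469, 673, 998 and 1061 counts (-1.03 ± 0.64, SD, n = 5 guides), all below it.

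Members of the same subcomplexes were spread widely. In the Y complex, NUP160 at -2.19 stood beside SEC13 at -0.97, which also serves the COPII coat, NUP43 at -0.63, SEH1L at -0.61, NUP107 at -0.19 and NUP37 at 0.03. In the inner ring, NUP93 and NUP205 stood beside NUP188 at -0.56 and NUP155 at -0.46. On the cytoplasmic face NUP88 reached -0.99, with guides at 160, 587, 1046, 1111 and 1389 counts. Importin β, KPNB1, had a mean of -0.28 ± 1.33 (SD, n = 5 guides) with guides as high as 2485 and 3019 counts, and the exportin XPO1 was at -0.43. The mRNA export pair NXF1 and NXT1 gave -0.11 and -0.85, the second set by 1 guide with 26 counts. At or below -0.5 lay 14 of the 32 (43.8%), against 379 of 2219 genes (17.1%).

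The motor list of cytoplasmic dynein, the minus-end motor of microtubules, and its activator dynactin had the lowest median of the 40 lists, -0.51. Of its 13 genes 1 was at or below -1 (7.69%, against 2.75% of all genes). It was ACTR10 (Arp11), which caps the pointed end of dynactin's filament, with 219, 269, 409, 1658 and 2030 counts (-1.17 ± 1.50, SD, n = 5 guides). At or below -0.5 lay 7 of the 13 (53.8%, against 17.1% of all genes). These included the dynactin subunits DCTN5 (-0.77), DCTN6 (-0.51) and CAPZA1 (-0.73), the dynein chains DYNLRB1 (-0.84) and DYNC1I2 (-0.51), and the cargo adaptor BICD2 (-0.88). DYNLT1, a light chain, was at 0.17.

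Genes of mitochondrial gene expression, respiration and import made up most genes of the essential lists in H4, and few were depleted. Of 202 such genes 5 were at or below -1 (2.48%), near the 2.75% of all genes. The mitochondrial ribosome gave 1 of 69, MRPL44, with 143, 254, 1118, 1880 and 1883 counts, of which 2 were low. The list's median was -0.05 and its highest member MRPL48 was at 0.54. None of 33 translation factors and tRNA synthetases passed: MTERFD1, a ribosome assembly factor, had -0.74 ± 1.06 (SD, n = 5 guides) and the recycling factor MRRF -0.72 ± 1.03 (SD, n = 5 guides). The transcription elongation factor TEFM was the lowest of 20 genes of mitochondrial DNA and RNA, at -0.98, with 1 guide at 81 counts.

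In the respiratory chain, NDUFAF6 had 248, 341, 528, 658 and 2300 counts (-1.22 ± 1.23, SD, n = 5 guides), with 4 guides low and 1 above the reference. NDUFAF6 was the 1 of 12 complex I genes at or below -1 (8.33%, against 2.75% of all genes). SCO2, which delivers copper to cytochrome c oxidase, had 202, 407, 429, 1238 and 1791 counts (-1.18 ± 1.28, SD, n = 5 guides). SCO2 was the 1 of 26 genes of complexes II, III and IV at or below -1 (3.85%, against 2.75% of all genes). The list had a median of -0.23 and ran from SCO2 up to COX7A2L at 0.47. At or below -0.5 lay 7 of the 26 (26.9%, against 17.1% of all genes). The list's other cytochrome c oxidase assembly factors ranged from COX20 at -0.84 to the copper chaperone COX17 at 0.39, and SCO1, the paralog of SCO2, was at -0.25. ATP5S, an ATP synthase coupling factor, had 49, 668, 676, 1086 and 1630 counts (-1.38 ± 1.97, SD, n = 5 guides). It was the 1 of 7 ATP synthase genes at or below -1 (14.3%). TOMM5, a small subunit of the outer membrane translocase, had 215, 554, 721, 945 and 1021 counts (-1.16 ± 0.90, SD, n = 5 guides), all below the reference. It was the 1 of 24 genes of mitochondrial import, chaperones and proteases at or below -1 (4.17%). None of 11 iron-sulfur cluster genes passed, and the lowest were the cytosolic scaffold NUBP2 at -0.97 and the mitochondrial iron carrier SLC25A37 at -0.97.

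The 18 essential lists together gave 15 of 314 genes at or below -1 (4.78%) and a median of -0.15. COPI and the nuclear pore held 9 of these 15 among 46 genes (19.6%), and the remaining 268 genes of the essential lists gave 6 (2.24%). The lists go by complex or process, and they also hold paralogs such as COPZ2 and COPG2. Whether each member is needed for growth of these cells was not tested. The 6 comparator lists, of genes with roles in cilia, muscle, synapses, fatty acid oxidation and non-mitotic transport, gave 0 of 102 with a median of -0.18, and the lowest was IFT74. Genes in no list gave 41 of 1594 (2.57%) with a median of -0.13. The mixed lists, assigned to neither kind, gave 4 of 192 (2.08%) with a median of -0.16. Over all genes the share was 2.75% with a median of -0.14. Among the essential lists, the share above that of all genes thus lay in the COPI and nuclear pore genes. Whether 0 of 102 differs from the share of all genes was not tested. Among early secretory genes outside COPI, none of 12 COPII genes passed, with SEC13 lowest, followed by SEC24B at -0.51 and RAB1B at -0.46. None of 4 signal recognition particle and translocation genes did, with SRP72 at -0.90 ± 0.65 (SD, n = 5 guides) and SRP14 at -0.49, all guides of both below 0.

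Of membrane traffic genes, RAB34 had 101, 464, 758, 1074 and 1249 counts (-1.32 ± 1.46, SD, n = 5 guides). RAB11B, a GTPase of recycling endosomes, had 42, 816, 1126, 1187 and 1864 counts (-1.15 ± 2.19, SD, n = 5 guides), a mean set by 1 guide. They were the 2 of 30 RAB genes at or below -1 (6.67%, against 2.75% of all genes). VPS28, of the ESCRT-I complex that sorts ubiquitinated receptors, had 197, 296, 855, 1124 and 1370 counts (-1.19 ± 1.23, SD, n = 5 guides). It was the 1 of 7 genes of the V-ATPase, HOPS and ESCRT list at or below -1 (14.3%). STXBP3, a regulator of SNARE assembly, had a mean of -2.33 ± 4.03 (SD, n = 5 guides) set by 1 guide with 1 count (95% exact Poisson interval 0.03 to 5.57, counting error only). Its other guides had 390, 1092, 1279 and 1359 counts. STXBP3 was the 1 of 21 genes of the SNARE list at or below -1 (4.76%).

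Of the clathrin and pit genes, which take an agonist-bound opioid receptor into the cell, 16 of 17 had means below 0. Over all genes 1508 of 2219 (68.0%) did. At or below -0.5 lay 5 of the 17 (29.4%), against 17.1% of all genes. The arrestins ARRB1 and ARRB2, which bind activated receptors, were at 0.33 ± 0.54 and -0.40 ± 0.48 (SD, n = 5 guides each). Clathrin light chain CLTA was at -0.05 and the heavy chain CLTC at -0.20, with guides between 865 and 1577 counts. The other light chain, CLTB, was at -0.71 ± 0.91 and CLTCL1, a second heavy chain gene, at -0.88 ± 0.78 (SD, n = 5 guides each). The pit factors EPS15L1 and ITSN2 were at -0.81 and -0.73. AP2 is the adaptor that links receptors to clathrin. Its subunit AP2A2 had 181, 610, 910, 995 and 1091 counts (-1.08 ± 1.07, SD, n = 5 guides), the 1 of these 17 genes at or below -1 (5.88%, against 2.75% of all genes). The alternative α subunit AP2A1 was at -0.46 ± 0.68, AP2B1 at -0.46 ± 0.87, AP2M1 at -0.21 ± 0.65 and AP2S1 at -0.17 ± 0.52 (SD, n = 5 guides each).

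Several of the lowest targets belonged to no list. PLRG1, a spliceosome component, had 85, 281, 629, 902 and 1004 counts (-1.68 ± 1.48, SD, n = 5 guides). MCM10, which helps start DNA replication, had 255, 383, 497, 848 and 1313 counts (-1.29 ± 0.93, SD, n = 5 guides). EEFSEC had 258, 395, 426, 519 and 1260 counts (-1.47 ± 0.84, SD, n = 5 guides). For these 3 genes all guides were below the reference. ELMO2, a partner of DOCK proteins in RAC activation, had 25, 306, 471, 860 and 1188 counts (-2.05 ± 2.18, SD, n = 5 guides), and EFHD1, a mitochondrial calcium-binding protein, had 137, 145, 315, 869 and 1390 counts (-1.85 ± 1.50, SD, n = 5 guides). FAM195A (-1.53), TMCO6 (-1.39) and, at its P2 start, the adaptor BCAR3 (-1.41) had all guides below 0. So did the presynaptic protein ERC2 (-1.40), and GLT8D1 (-1.52) and the granin SCG2 (-1.23) had 4 of 5.

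CPNE1, a calcium-dependent phospholipid-binding protein, had 153, 416, 473, 575 and 649 counts (-1.74 ± 0.82, SD, n = 5 guides). Its start region is shared with RBM12, which encodes an RNA-binding protein, and 3 of its guides had the same strand and position as RBM12 guides in H5. These 3 averaged -1.98 in the H4 dim quartile and -1.62 in the H5 dim quartile, so they were low in both pools. In the H5 bright quartile the same 3 guides averaged 0.16. All 5 RBM12 guides averaged -1.31 ± 0.68 in the dim and 0.44 ± 0.43 in the bright quartile (SD, n = 5 guides each). For these guides a low dim-quartile count thus went with a bright-quartile count near or above the reference in the pool where both were measured.

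How far low dim-quartile abundance was shared by the bright quartile was measured in the 6 other sublibraries. Between the quartiles the values of non-targeting guides correlated at 0.95 to 0.97, and target means at 0.81 (H3) to 0.97 (H7). These are descriptions over guides that share a starting pool and a cell population. Of 1301 targets at or below -1 in a dim quartile, 970 (74.6%) were also at or below -1 in the bright one, and 1285 (98.8%) lay below 0 there. The share ran from 38.1% in H3 to 82.9% in H6. The pools H6 and H7 supplied 287 and 440 of the 1301 targets. H3 and H2, nearest H4 in non-targeting SD (0.71 and 0.78, against 0.71), gave 38.1% and 63.6%. Nuclear pore genes of the 6 other sublibraries gave 6 of 33 at or below -1 in the dim and 1 of 33 in the bright quartile. NUPL1 had -2.88 and -0.52, NUP62 -2.38 and -0.99, NUP98 -1.51 and -0.74, NUP85 -1.12 and -0.12, and RANGAP1 -1.03 and -0.41. The importin gene KPNA6 went the other way, at -1.04 and -1.35, and was the call in the bright quartile. COPI genes gave 2 of 11 in the dim quartile and 2 in the bright, with ARF4 at -1.30 and -0.92. Essential lists as a whole gave 43 of 496 (8.67%) in the dim and 28 (5.65%) in the bright quartile. Comparator lists gave 6 of 139 (4.32%) in the dim and 7 (5.04%) in the bright quartile. Over all 16686 genes of those pools, at their primary starts, the shares were 7.41% in the dim and 6.98% in the bright quartile, the background for these counts. How the depleted H4 targets stood in the H4 bright quartile was not analysed here.

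Of H4 guide sites, 173 were also listed in another sublibrary, and their dim-quartile values correlated at 0.47 over these sites. Of the 16 sites at or below -1 in H4, 9 were at or below -1 in the other pool and 14 below 0. Over all 173 sites, 38 (22.0%) were at or below -1 in the other pool. RAB34 was an exception: 3 of its guides were shared with NARR in H7, at means of -0.67 in H4 and 0.71 in H7. For MEMO1 at P1 and DPY30, which shared 4 sites, the means were -0.88 in H4 and -0.89 in H7.

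For 166 genes both a P1 and a P2 start were targeted. P1 was at or below -1 in 7 of the 166 and P2 in 4 of the 166. Over all targets of the library 66 of 2410 (2.74%) were, the background for these counts. Both starts were at or below -1 in 1 gene, RAP1GAP, a GTPase activator of RAP1, at -1.05 for each. Over these genes the means of the starts correlated at 0.08, as a description. COPZ1 was low at P1 only, as given above. PLTP, a phospholipid transfer protein, was at -1.02 for P1 and 0.20 for P2, and BCAR3 at -0.59 and -1.41. The P2 values of FERMT3 (-2.56 ± 4.30, SD, n = 5 guides) and TEX101 (-1.77 ± 4.33, SD, n = 5 guides) each held a guide with 1 count.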

How the data were processed

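The values are counts per guide, which the authors deposited as whole numbers with no normalization, 1 table per library with a guide name and a count. Per the submitters' processing notes the tools included Bowtie. Its version, the counting settings and the build of the guide positions were not given in the sources used here. Groups were taken from the titles in the labels, 1 library per group. Tables list only guides with a count.

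A pseudocount of 1 was added to every count; the sum was divided by the library total, put on the log2 scale and centred on the median of the library's non-targeting guides. A target needed at least 3 listed guides and was given as the mean ± SD over guides; the threshold was 1 on the log2 scale in either direction. Guides of one target share it, and guides at one site share a sequence, so no test was run. When lists were counted, 1 start stood for each gene: P1P2 or P1, else a transcript-named start, else P2.

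The members, the 41 gene lists (40 with genes in H4), the naming rule and the alternatives were chosen with earlier results of these data known. The rule took, per list, up to 5 lowest members at or below -1 with at least 4 guides and 80% of guides below 0, members nearest the list median, or the 2 lowest where none passed. It also took the 20 lowest and 6 highest targets and the arrestin, clathrin and AP2 genes. Other genes are named to complete a count, a complex or a shared site, after their values were seen. Promoter sequences came from RefSeq, GRCh38.p14; 1667 of 2219 symbols matched that table, and 2218 a RefSeq gene table used for chromosomes. Reads were amplified without molecular identifiers, so the counting intervals (95%) cover counting error only. The summary was tested on simulated data. Python 3.11.15, pandas 2.3.3, numpy 2.4.6 and scipy 1.17.1 were used.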

Additional observations from a re-analysis of the deposited data

How the results depend on the processing

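The main limits are 1 library, about 5 guides per target and no count from before growth. Of 66 depleted targets, 62 remained with a pseudocount of 10, 48 when centred on the median of all guides and 56 with only guides of at least 50 counts. The median over guides gave 55, of which 34 were among the 66. The counts of depleted targets fell by over 1.5 times under 2 settings. The log2 of summed counts, which the highest guide weighs on most, left 19 targets at or below -1. It left 5 genes of the essential lists, while targets at or above 1 rose from 5 to 8. Leaving out each target's guide farthest from 0 by construction moves means toward 0. It left 17 targets, 5 genes of the essential lists and 0 targets at or above 1. For targets at or above 1 the median over guides gave 9, and leaving out guides of shared sites gave 3. At a threshold of 0.5 there were 402 low targets and 51 high ones, with 69 genes of the essential and 14 of the comparator lists low. At a threshold of 2 there were 6 low targets, 0 high ones and 3 low genes of the essential lists. With guides of at least 50 counts in both quartiles, 71.2% of dim-depleted targets of the other sublibraries were also depleted in the bright quartile. Of the 29 depleted targets the naming rule took, 14 stayed at or below -1 under each of the alternatives that could be computed for them, up to 9 each: NUP93, NUP160, COPB1, COPB2, COPZ1, CPNE1, EEFSEC, PLRG1, MCM10, ELMO2, EFHD1, FAM195A, TMCO6 and BCAR3 at P2. The other 15 lost the call under at least 1, with highest means of -0.85 (COPA), -0.66 (NUP205), -0.84 (TNPO3), -0.74 (NDUFAF6), -0.75 (SCO2), -0.79 (TOMM5), -0.58 (AP2A2), -0.53 (ATP5S), -0.67 (VPS28), -0.72 (RAB34), -0.19 (RAB11B), -0.32 (STXBP3), -0.41 (GLT8D1), -0.64 (SCG2) and -0.89 (ERC2).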

Other observations

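Target means at or above 1 were few, and the 5 targets with means at or above 1 came from 3 distinct sets of guide counts. RGPD1, a member of the family of RANBP2-like genes, had a pair of transcript-named starts whose guides lay at different positions. The guides of both starts had equal counts, 1640, 2394, 3561, 3825 and 4112 (1.11 ± 0.56, SD, n = 5 guides). The P2 starts of BCKDHA, a subunit of the branched-chain keto acid dehydrogenase, and TMEM91 shared guides by position, at 1.09 ± 0.48 (SD, n = 5 guides). CPSF1, the largest subunit of the factor that recognises the polyadenylation signal, had 1566, 2249, 2612, 4206 and 5266 counts (1.09 ± 0.70, SD, n = 5 guides), the highest count of the library among them. The keratin gene KRT39 followed at 0.94 ± 0.60 (SD, n = 5 guides). In the library 80 guides had a strand and position listed under more than 1 target, with equal counts in all 80 cases. Thus 22 targets repeated guides of another, and the RGPD1 starts were not among them.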
